A study of Rattus norvegicus with 9 samples.

Results

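The 10 transcripts described here are annotated long non-coding RNA (lncRNA), named by rat Ensembl identifiers, that stand in the study's list of RNA higher in ischemia-reperfusion (I/R) and lower after dexmedetomidine (DEX), a sedative that activates α2 adrenergic receptors. They were selected by their counts in these same libraries, so their rise in I/R and their fall in I/R + DEX are given as descriptions and not as tested results. They are 10 of 44059 transcripts in the count table, 10 of its 40808 annotated transcripts, and 10 of the 53 lncRNA on that list, of which the other 43 are transcripts predicted by the study. Long non-coding RNA are transcripts that are not translated into protein. Some stay at the chromatin and act on transcription, others act in the cytoplasm on mRNA or bind miRNA, and many are made at low levels and in few cell types. In the brain they are abundant, and stroke is known to change many of them.

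RNA came from the cortex of 9 male Sprague-Dawley rats, 7 to 8 weeks old, with 3 rats in each group. In the Sham group the neck vessels were exposed and no wire was inserted. In the I/R group a wire closed the middle cerebral artery for 2 h (tMCAO). By the study's Methods, 50 μg/kg of DEX was injected into the abdomen 30 min before the same occlusion in the I/R + DEX group. The study's abstract instead places DEX both before ischemia and after reperfusion. Tissue was taken 24 h after surgery, at the infarct site in the rats with tMCAO. The Sham and I/R rats received saline in the volume used for DEX.

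Library totals were 21691473 to 28600541 counts for Sham, 32479042 to 35092422 for I/R and 31234956 to 36039743 for I/R + DEX. Values are raw counts or CPM (counts scaled to a common library size by the TMM method) over the 9 libraries. The floor was set at 3 counts per library, the limit that a count of 0 allows, and it lay between 0.0832 and 0.138 CPM before scaling. In I/R + DEX replicate 3 a single transcript took 11% of all counts, against 2.04% to 7.55% in the other 8 libraries. Tissue of the infarct is a mixture of cells, and fewer cells of a type and less RNA per cell cannot be told apart in it. The identifiers were matched to gene symbols in 0 of 10 cases, so cell type markers were not measured and the annotated biotype, locus and sequence of the 10 lncRNA were not checked here.

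All 10 lncRNA were rare. The highest count of any of them in any library was 31, and their counts summed over 9 libraries ran from 11 to 129. In the I/R group their mean levels ran from 0.105 to 0.811 CPM, which placed them between percentiles 22.8 and 41 of the 34111 annotated transcripts with any count. In the Sham group 7 of the 10 had no count in any library, and in I/R + DEX 3 of the 10 had none. Each of the 10 was counted in all 3 I/R libraries.

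**Figure D1:**
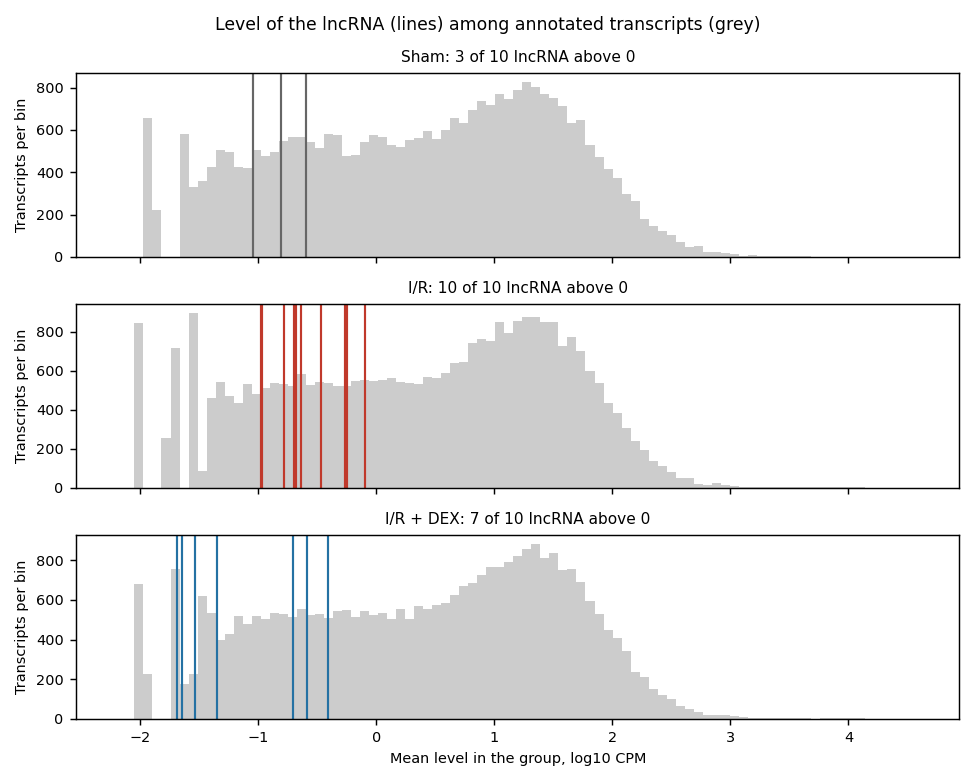
Histograms of the mean level of annotated transcripts in each group (grey, log10 CPM on the x axis, transcripts per bin on the y axis), with a line for each of the 10 lncRNA above 0. In I/R all 10 lines lie at or below 0.811 CPM, while Sham has 3 lines and I/R + DEX has 7.

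The 10 lncRNA together gave 114, 114 and 110 counts in I/R replicates 1, 2 and 3. Their sums were 13, 9 and 19 counts in Sham and 24, 37 and 32 in I/R + DEX. Every I/R library therefore held far more counts on them than any other library. The I/R + DEX sums also lay above the Sham sums, but taken singly only 1 of the 10 had that order. It was ENSRNOT00000089677, with 2, 3 and 2 counts in Sham and 7, 19 and 12 in I/R + DEX, so the order of the sums is not a trait of the set. After scaling, the sums were 3.08 to 3.45 CPM for I/R, 0.4 to 0.642 CPM for Sham and 0.738 to 1.09 CPM for I/R + DEX.

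For each of the 10, every I/R library lay above every Sham library and above every I/R + DEX library in CPM, which is the pattern the list was made for. Among the 7447 annotated transcripts with totals in the same range of 11 to 129 counts, every I/R library lay above every Sham library for 15.7%, above every I/R + DEX library for 5.89%, and above both for 3.03%. Those 3.03% were 226 annotated transcripts of any class, and the 10 lncRNA are among them by selection. Under DESeq2-type size factors (RLE scaling) the count was 9 of 10, since ENSRNOT00000091786 then overlapped another group.

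**Figure D2:**
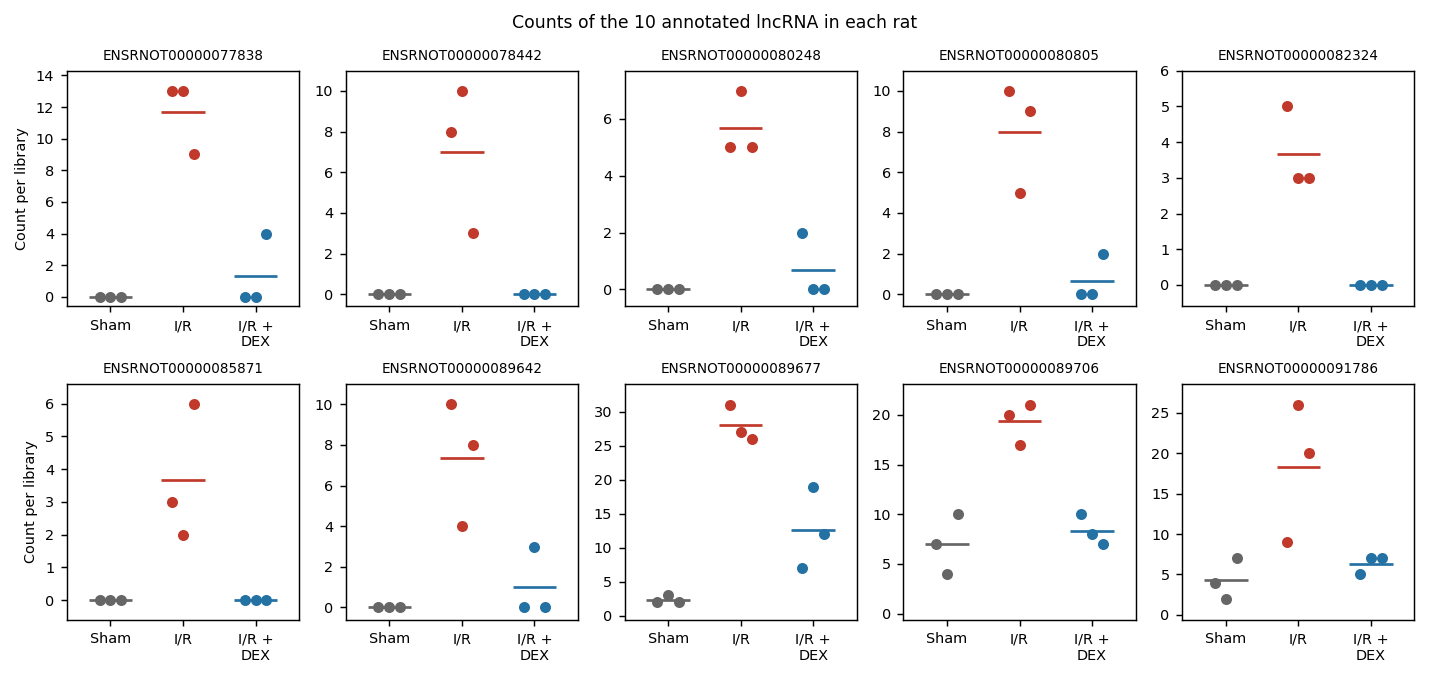
Raw count in each library (y axis) for each of the 10 lncRNA, with 1 point per rat, the groups side by side, and a bar at the group mean. In each panel all 3 I/R points lie above all other points, and 7 panels have all Sham points at 0.

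A first set of 3 lncRNA was counted in every library of every group, so a ratio can be given between all groups. ENSRNOT00000089677 was the most abundant. It had 2, 3 and 2 counts in Sham replicates 1 to 3, 31, 27 and 26 in I/R, and 7, 19 and 12 in I/R + DEX. Its Sham counts were all at or under the floor of 3, so the size of its folds over Sham is uncertain. The 3 groups did not overlap, with I/R + DEX between Sham and I/R. In CPM the I/R rats measured 0.811 ± 0.0279, the rats given DEX 0.394 ± 0.172 and the Sham rats 0.0907 ± 0.0369 (SD, n = 3). The I/R level was 9.3-fold the Sham level from the summed counts (95% counting interval 4.32 to 23.8), and the I/R + DEX level was 0.488 of the I/R level (0.323 to 0.723).

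ENSRNOT00000089706 had 7, 4 and 10 counts in Sham, 20, 17 and 21 in I/R, and 10, 8 and 7 in I/R + DEX. Sham and I/R + DEX overlapped, and both lay below I/R. The I/R level was 0.561 ± 0.0614 CPM, beside 0.255 ± 0.0803 for Sham and 0.26 ± 0.0411 for I/R + DEX (SD, n = 3). I/R was 2.14-fold Sham (95% counting interval 1.28 to 3.71), and I/R + DEX was 0.465 of I/R (0.278 to 0.755).

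ENSRNOT00000091786 had 4, 2 and 7 counts in Sham, 9, 26 and 20 in I/R, and 5, 7 and 7 in I/R + DEX. Its separation was narrow, since I/R replicate 1 at 0.243 CPM was close to Sham replicate 3 at 0.237 and I/R + DEX replicate 3 at 0.238. The I/R rats averaged 0.543 ± 0.276 CPM, the Sham rats 0.156 ± 0.0748 and the rats given DEX 0.199 ± 0.0423 (SD, n = 3). By summed counts I/R was 3.28-fold Sham (1.77 to 6.54), and I/R + DEX was 0.372 of I/R (0.209 to 0.637). The spread between I/R rats was 5.07 times what counting error alone gives, the widest of the 10 in that group.

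The other 7 lncRNA had no count in any Sham library. ENSRNOT00000077838 was the most abundant of these, with 13, 13 and 9 counts in I/R and 0, 0 and 4 in I/R + DEX. Only I/R + DEX replicate 3, the library in which 1 transcript took 11% of the counts, was above the floor among the rats given DEX. At the rate seen in I/R, 27.1 counts would have been found at the summed depth of the Sham libraries, where 0 were found, and 32.5 in I/R + DEX, where 4 were found. I/R was at least 2.97-fold above Sham, computed against 3 counts in each Sham library, and I/R + DEX was 0.123 of I/R (95% counting interval 0.0318 to 0.345).

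A further 3 lncRNA had counts in a single rat given DEX, each at or under the floor. ENSRNOT00000080805 had 10, 5 and 9 counts in I/R and 0, 0 and 2 in I/R + DEX. ENSRNOT00000089642 had 10, 4 and 8 counts in I/R and 0, 3 and 0 in I/R + DEX. ENSRNOT00000080248 had 5, 7 and 5 counts in I/R and 2, 0 and 0 in I/R + DEX. The rat with counts was a different one for each of these 3 lncRNA. Against the Sham floor their I/R levels were at least 2.02-fold, 1.85-fold and 1.45-fold higher, in the order given. Their I/R + DEX levels were 0.0898 (95% counting interval 0.0103 to 0.362), 0.147 (0.0282 to 0.489) and 0.127 (0.0142 to 0.534) of I/R.

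The last 3 were counted in I/R alone. ENSRNOT00000078442 had 8, 10 and 3 counts in the I/R libraries, ENSRNOT00000082324 had 5, 3 and 3, and ENSRNOT00000085871 had 3, 2 and 6. For ENSRNOT00000078442, I/R was at least 1.78-fold above Sham, and I/R + DEX was at least 2.15-fold below I/R. ENSRNOT00000082324 and ENSRNOT00000085871 each summed to 11 counts over the I/R group (exact Poisson 95% interval 5.49 to 19.7). No fold above Sham is given for this pair, because 3 counts in each Sham library would equal or exceed their I/R level. Bounds of this kind put 3 counts in every library of the group at 0 and leave out counting error in I/R. Their size is thus not comparable with that of the ratios of summed counts. Against the floor in the larger I/R + DEX libraries they were at least 1.12-fold and 1.14-fold lower than in I/R. At the I/R rate, each of this pair would have given 8.52 counts over the Sham group and 10.2 over I/R + DEX, where 0 were found, but only 2.39 to 3.15 in a single Sham library, near the floor of 3 counts.

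**Figure D3:**
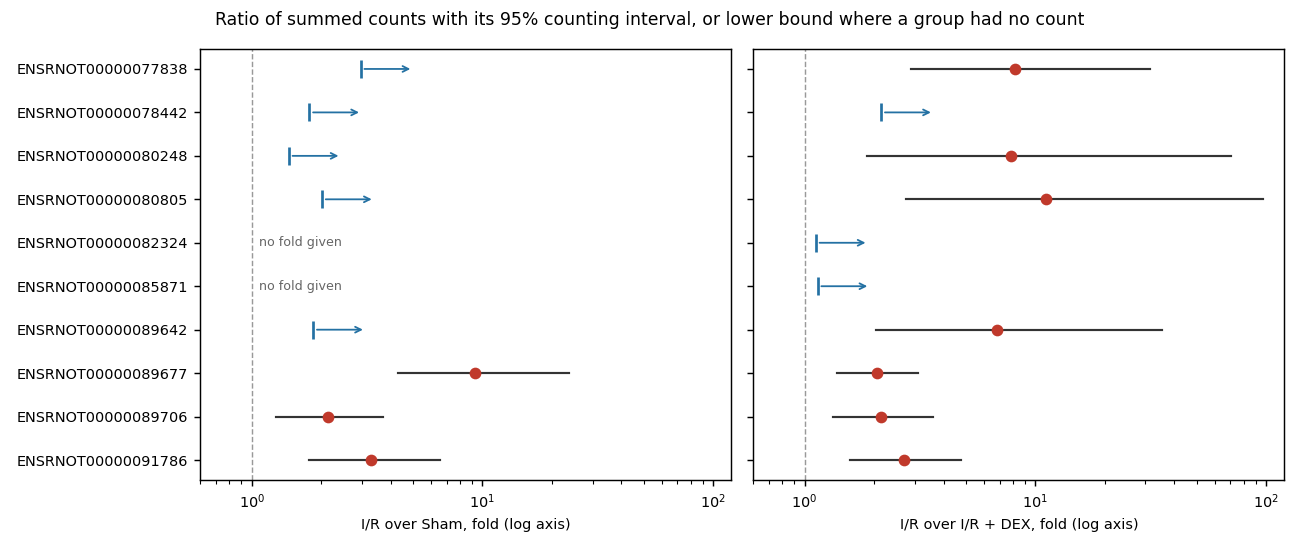
Fold of I/R over Sham (left) and of I/R over I/R + DEX (right) for each lncRNA, on log axes. Red points are ratios of summed counts with 95% counting intervals, and each interval lies above 1. Blue marks with arrows are lower bounds against the floor where the lower group had no count, and 2 lncRNA have no fold on the left. Red and blue values follow different rules and are not comparable in size.

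Counts of 0 in Sham were not particular to these 7. Of the 40808 annotated transcripts, 583 had no count in any Sham library and a count in every I/R library. In 242 of these 583 every I/R + DEX library had a count as well, and in 35 no I/R + DEX library had one. Among the 7 lncRNA these numbers were 0 and 3. The 7 were selected on a fall after DEX, and the 583 were not limited to their range of counts, so the numbers are not compared.

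The spread of counts between I/R rats was no larger than counting error in 7 of the 10 lncRNA. The measure was the variance over that expected from counting, which was 0.0334 for ENSRNOT00000089677, 0.225 for ENSRNOT00000089706 and 0.221 for ENSRNOT00000082324. It exceeded 1 for ENSRNOT00000085871 (1.29), ENSRNOT00000078442 (1.86) and ENSRNOT00000091786 (5.07). With 3 libraries this measure is itself uncertain, and a list selected on a difference between groups favours a small spread. In I/R + DEX the measure was within counting error for 2 lncRNA, ENSRNOT00000089706 (0.21) and ENSRNOT00000091786 (0.282). There it was 2.48 for ENSRNOT00000089677, the rats at 0.215, 0.559 and 0.407 CPM. It also exceeded 1 for ENSRNOT00000077838 (4.51), ENSRNOT00000089642 (2.73), ENSRNOT00000080805 (2.26) and ENSRNOT00000080248 (1.95), each counted in a single rat given DEX. For a lncRNA counted in a single rat the measure lies near its total count, which was 2 to 4 here, so these values do not show extra spread. Counting intervals cover counting error only, and they understate the spread wherever rats differ by more than that.

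The transcript-wide model had little to work with at these counts. For the comparisons, edgeR's quasi-likelihood test was fitted over all transcripts that passed its low-count filter. A transcript was called by the study's stated limits, called the cutoff here, which ask for a log2 fold change past 0.8 and for p, without adjustment, below 0.05. The Methods of the study name neither the test behind that p nor a low-count filter, so these calls do not repeat its selection. The filter kept 2 of the 10 for I/R against Sham, the same 2 for I/R + DEX against I/R, and 0 for I/R + DEX against Sham. These 2 were ENSRNOT00000089677 and ENSRNOT00000089706, and since they passed through the high I/R counts, their count of calls carries no weight. In I/R against Sham both passed the cutoff upward, against 18.7% of the 25777 transcripts tested. Their log2 fold changes were 3.12 (standard error 0.407) and 1.09 (0.373), beside a median of 0.03 over all transcripts tested. The first of these rests on Sham counts at or under the floor. In I/R + DEX against I/R, 1 of the 2 passed downward, against 1.19% of 25860, and the log2 fold changes were -1.03 (0.433) and -1.09 (0.364), beside a median of 0.01. At an adjusted p under 0.05 edgeR called 0 of the 25860 transcripts in this comparison, 997 had an unadjusted p under 0.05, and at their adjusted p DESeq2 called 85 and limma-voom 2. Scaled to total counts, the median over all transcripts moved from 0.01 to -0.10, and 71.1% of the calls at the cutoff were lower in I/R + DEX, against 50.7% with TMM. ENSRNOT00000089706 was the one inside the cutoff, with ENSRNOT00000089677 outside on its p and not on its fold. The nearest annotated transcript outside on its fold had a log2 fold change of -0.799 after DEX and 1.84 in I/R against Sham. Of the 22339 annotated transcripts tested in both comparisons 150 passed upward in I/R and downward in I/R + DEX, and 1 of the 10 lncRNA was among these.

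I/R + DEX and Sham were not compared with each other in the selection, but a lncRNA entered the list only where both lay below I/R, so the Sham and I/R + DEX values were themselves selected on and are described here with no test. Both groups had counts in every library for 3 of the lncRNA. The Sham counts of ENSRNOT00000089677 were all at or under the floor, so the size of its fold is uncertain. It was 4.53-fold higher in I/R + DEX than in Sham (95% counting interval 2 to 12), with every I/R + DEX library above every Sham library. That order was found for 9.84% of the 7447 annotated transcripts in the same range of counts, and for 1 of the 10 lncRNA. Its fitted log2 fold change was 2.07 (standard error 0.634) without the low-count filter, which on the Sham and I/R + DEX libraries alone did not keep it. ENSRNOT00000089706 was at 0.994 of Sham (95% counting interval 0.534 to 1.87), and ENSRNOT00000091786 at 1.22 (0.572 to 2.69). Both intervals span 1 and are wide, so equality with Sham was not shown. For the 7 lncRNA at 0 in Sham, the 3 I/R + DEX libraries held 2, 3 and 6 counts in all, and no fold could be given at this depth. The difference between lncRNA in how near the I/R + DEX level lay to the Sham level was not tested.

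Compared with the 43 predicted lncRNA of the same list, the 10 annotated ones were far less abundant and more even between I/R rats. The predicted lncRNA had totals from 138 to 14571 counts, so that each of the 43 exceeded the highest annotated total of 129. The annotated lncRNA had no I/R library at 0, while 22 of the 43 predicted lncRNA had at least 1. All 3 I/R libraries were above the floor for 7 of 10 annotated and 20 of 43 predicted lncRNA, and only 1 was for 2 of 10 and 14 of 43. The median coefficient of variation between I/R rats was 0.272 for the annotated and 1.06 for the predicted lncRNA. These lists were both selected on the same libraries, and how reads were shared among transcripts of a locus is not given in the sources used here, so the values describe the 2 lists without a test of their difference.

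**Figure D4:**
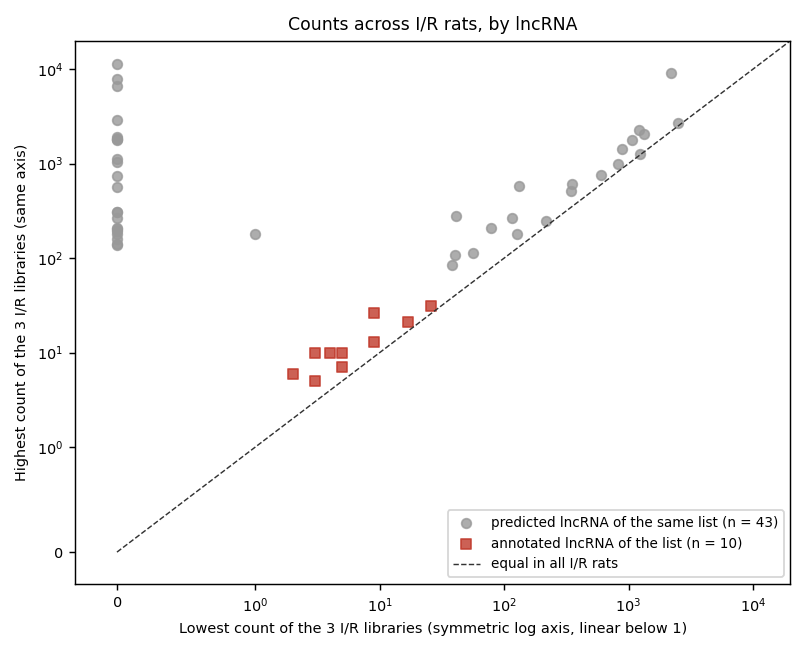
Highest against lowest count of the 3 I/R libraries for the 10 annotated (red squares) and 43 predicted lncRNA (grey circles) of the list, on symmetric log axes with the line of equal counts dashed. The annotated lncRNA stay at or below 31 counts, while 22 predicted lncRNA lie at a lowest count of 0.

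The opposite list, of lncRNA lower in I/R and higher in I/R + DEX, held 4 annotated lncRNA, each named here for its small number. ENSRNOT00000080825 had 144, 60 and 79 counts in Sham, 22, 14 and 30 in I/R, and 76, 11 and 82 in I/R + DEX, with I/R + DEX replicate 2 below all I/R libraries. ENSRNOT00000092666 had 41, 68 and 50 counts in Sham, 14, 8 and 24 in I/R, and 35, 23 and 33 in I/R + DEX. ENSRNOT00000088398 had 11, 3 and 9 counts in Sham, 0, 0 and 2 in I/R, and 8, 9 and 10 in I/R + DEX. ENSRNOT00000076576 had 10, 4 and 0 counts in Sham, 0 in each I/R library, and 9, 22 and 0 in I/R + DEX. The last pair were thus as rare as the 10, while the first pair summed above the 129 counts of the most abundant of the 10.

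The filter over 9 libraries kept 2 of the 10 lncRNA for a comparison of patterns, given as a description. Between ENSRNOT00000089677 and ENSRNOT00000089706 the Pearson correlation of log2 CPM over the 9 libraries was 0.637, with the 3 groups pooled. Of the other transcripts, 1173 (4.37%) had a correlation of at least 0.9 with ENSRNOT00000089677. The most like it was ENSRNOT00000017684 with 0.990, an annotated transcript at 18.5 ± 0.102 CPM with I/R, 16.4 ± 1.68 with I/R + DEX and 12.7 ± 0.836 with Sham surgery (SD, n = 3). Its rise is small beside that of ENSRNOT00000089677, since a correlation follows the order and spacing of libraries and not the size of a change.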

How the data were processed

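RNA-seq libraries of rat cortex were made by the authors from total RNA, with 3 rats in each of 3 groups per the Methods. The sample titles, which are S, IR and D with a number, were read as Sham, I/R and I/R + DEX. The authors deposited raw counts, whole numbers for each transcript in each library. CPM were computed here from TMM-scaled library sizes. The submitters' processing notes list STAR 2.5.3a, StringTie 1.3.1 and the rat build rn6, while the Methods of the study name a mouse build. How reads of overlapping transcripts, or of a transcript and its antisense partner, were divided, and whether strand was used, is not given in the sources used here, so each count is uncertain to that extent.

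Counts were analysed in R 4.3.3 with edgeR 4.0.16 (TMM scaling, filterByExpr with a count of 10 and a total of at least 15, quasi-likelihood test, Benjamini-Hochberg adjustment over all transcripts), on the 6 libraries of each comparison. The cutoff was taken from the study. Standard errors are the fold change over the square root of F. Counting intervals (95%, exact Poisson or conditional binomial) and floors cover counting error only, since amplified reads are not independent molecules. Correlations used log2 CPM with a prior count of 2. Alternatives were RLE or total-count scaling, other filters, DESeq2 1.42.0, and limma-voom with a quality weight for each library (limma 3.58.1). Further ones were all 9 libraries in one fit, a replicate block, a log2 limit of 1, and leaving out each library. The scripts were tested on simulated data, with changes placed in transcripts more abundant than nearly all of the 10. That test does not show how the fit performs at the counts of the 10. Replicates were separate rats per the Methods, and every pair of libraries of a group differed by more than sampling noise (chi-square per degree of freedom 25.8 to 327). All 10 listed lncRNA are named, plus the transcript most like the most abundant of them and small sets of the compared lists. The members and lists were chosen with earlier results of these data known. Of the 10 lncRNA, 0 were matched in the RefSeq gene and promoter tables, so no sequence is printed.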

Additional observations from a re-analysis of the deposited data

How the results depend on the processing

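The main filter left 8 to 10 of the 10 lncRNA untested. The number past the cutoff moved with filter, model, scaling and libraries. In I/R against Sham 2 passed; 10 of 10 passed with no filter, 0 with at least 10 counts in every library (none was then tested), 1 with DESeq2, and 1 to 4 when a library was left out (1 without I/R replicate 2, 4 without Sham replicate 3). In I/R + DEX against I/R 1 passed, and the count was 7 of 10 with no filter, 0 with at least 10 counts in every library (none tested), 0 with DESeq2, 2 with total counts, 2 with all 9 libraries in one fit, and 0 to 1 when a library was left out (0 without I/R replicate 2 and without I/R replicate 3). In I/R + DEX against Sham 0 passed with none tested, and 1 did with no filter, 1 with all 9 libraries, and 0 to 1 with a library left out (1 without Sham replicate 1, Sham replicate 2 or I/R + DEX replicate 1). The fit of 9 libraries tested ENSRNOT00000089677 only through its high I/R counts, on which it was selected, and that call supports no difference from Sham. At an adjusted p in that comparison the count was 0, and 1 with all 9 libraries or without I/R + DEX replicate 1. The 10 were selected on these same libraries, so these counts carry no weight as results. The share of all transcripts called in each setting is not given here. The cause of these moves was not tested.

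With the replicate number as a block, 1 lncRNA passed upward after I/R, and 0 passed downward after DEX. Same-numbered libraries correlated at -0.27 to 0.07 in their deviations from the group means, and their own number correlated best in 6 of 18 cases, so the numbers were not taken as pairs. All 10 lncRNA had I/R above both other groups, and 9 did under RLE scaling. That count and the log2 ratio of mean CPM were chosen after seeing the data, and the ratio moved by less than the replicate spread in 72 of 72 alternatives. Its direction changed in 3, each for ENSRNOT00000089706 in I/R + DEX against Sham. It went from 0.03 to -0.07 with total counts, -0.11 without I/R + DEX replicate 1 and -0.18 without Sham replicate 2. Without Sham replicate 2 the fitted log2 fold change of ENSRNOT00000089677 in I/R against Sham moved from 3.12 to 3.45. Without Sham replicate 3 that of ENSRNOT00000089706 moved from 1.09 to 1.34. At 11 to 129 counts per lncRNA, depth limits every fold given.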
